A study of Mus musculus with 6 samples.

Results

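Genes of the cell cycle and of DNA replication were followed in the livers of mouse offspring whose mothers had eaten 1 of 3 diets. The set is a list of 51 genes, named for their known role in the division cycle and not by their values here. Of these, 50 had a probe that the array annotation assigns to them alone, among 19938 genes measured in that way. The 19 genes called S phase genes below act at the entry into and during DNA synthesis, and all of them were measured. The 32 mitotic genes act mainly from the end of DNA synthesis to the separation of the daughter cells, and 31 were measured. Ccna2, which is grouped with them, also acts in S phase. Ccnb1, which encodes cyclin B1, had no probe of its own in the annotation used here and was not analysed here.

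The offspring were C57Bl6/J mice, an inbred laboratory strain, and the labels state that the livers were removed no later than 1 day after birth. The mothers, 4 to 5 weeks old according to the labels, ate diets of equal energy with 6 g% of oil. Soybean oil was used for the control group. The ALA group had flaxseed oil, for which alpha-linolenic acid, an omega-3 fatty acid, is given as 31.6%. The SFA group had coconut oil, with saturated fatty acids given as 48.51%. Fathers ate chow except while mating, when they shared the diet of their mates. Each diet had 2 Affymetrix arrays, each carrying total RNA from a pool of 3 livers, so that the spread between the duplicates is the spread between pools and not between animals. Values are log2 signals, on which a difference of 1 is a doubling, and no signal is compared between different probes.

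A dividing cell first licenses its replication origins by loading the MCM helicase, then copies its DNA in S phase, and then builds a spindle and separates the copies in mitosis. Each step has its own wave of transcription: E2F factors act on promoters of the genes for S phase, while the MuvB complex, with B-MYB or FOXM1, acts on those of mitosis. Liver cells of the newborn mouse still divide, and division becomes rare as the liver matures. In bulk liver, fewer cells of a type and less RNA per cell cannot be told apart, and a higher signal here may come from more cells in division or from more RNA in each.

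Most of the mitotic genes and 9 of the 19 S phase genes were higher on the SFA arrays than on the control arrays, by 1.86-fold to 15.3-fold on the measured means of those that passed the test. The ALA arrays lay between, and the second ALA pool was closer to the SFA arrays than the first. In the comparison of SFA with control, 36 of the 50 genes passed a limma test at an adjusted p below 0.05, all of them higher, where 3.15% of all genes were called higher. Those were 9 S phase genes and 27 of the 31 mitotic genes. In the comparison of ALA with control, 15 of the 50 passed, again all higher, against 2.02% of all genes, and they were 3 S phase and 12 mitotic genes. All 15 are among the 36, and both comparisons use the same 2 control arrays. Without control replicate 1 the counts were 2 genes for ALA and 14 for SFA, without control replicate 2 they were 2 and 10, and without ALA replicate 2 the ALA count was 3. The SFA count was 23 without SFA replicate 1 and 22 without SFA replicate 2.

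The median difference over the 50 genes was 0.94 for ALA minus control and 1.56 for SFA minus control, where the median of all genes was -0.02 and -0.01. Both ALA arrays lay above both control arrays for 40 of the 50, against 22.3% of all genes. Both SFA arrays did so for 45 of the 50, against 26.8% of all genes. The mitotic genes differed more than the S phase genes: their median was 1.29 against 0.41 for ALA and 1.99 against 0.90 for SFA. No test was made of that difference, since genes are not replicates of a diet. The gap of 0.88 for ALA was 1.13 without ALA replicate 1 and 0.54 without ALA replicate 2, and the gap of 1.10 for SFA was 0.79 without control replicate 1.

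**Figure D1:**
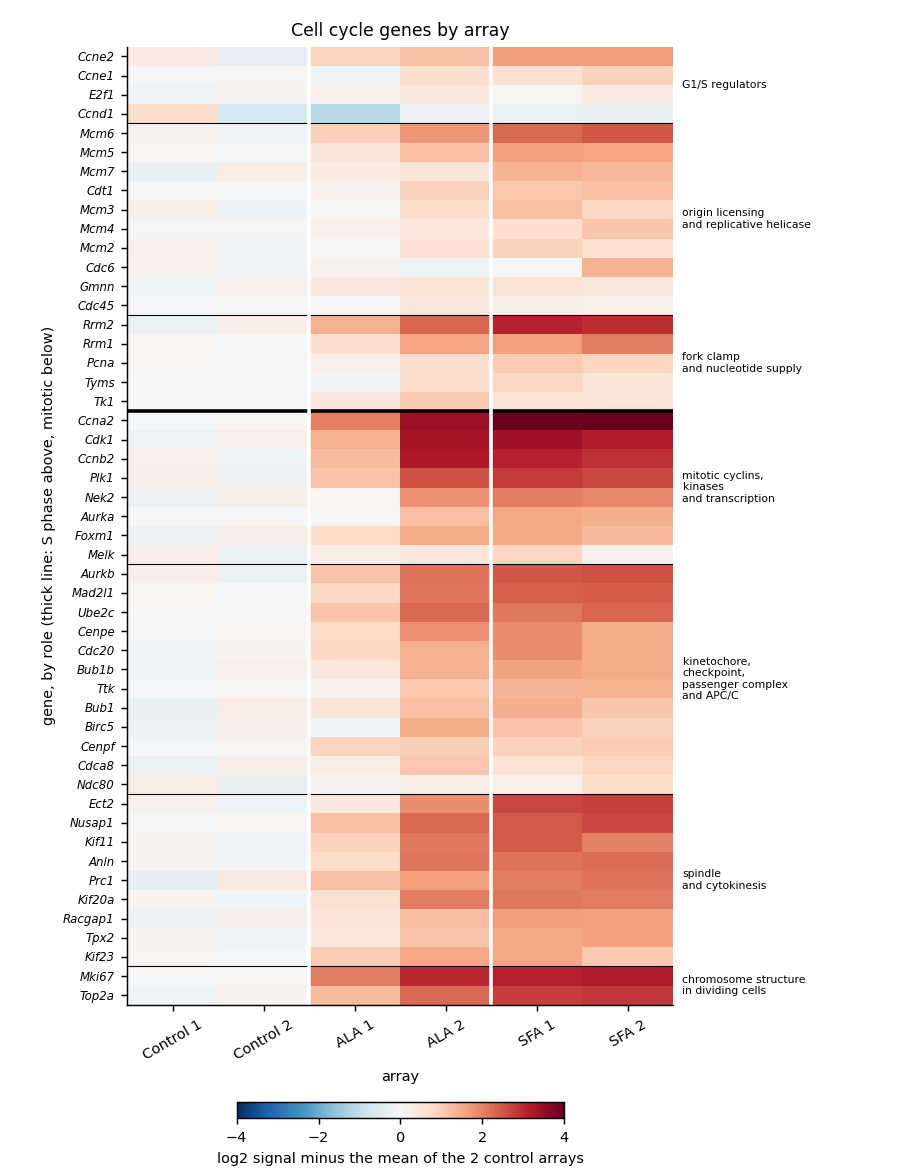
Log2 signal of each of the 50 measured genes on each of the 6 arrays, as the difference from the mean of the 2 control arrays (colour scale), with genes in rows by role and arrays in columns. The SFA columns are the reddest in most mitotic rows, the ALA 2 column is close to them, and the ALA 1 column is paler.

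Signals near background limit the sizes. The level below which 95% of the values of 1027 olfactory receptor genes lie, which are not known as liver genes, was 4.37. On control, 11 of the 50 genes had a mean at or below that level: Ccne2, Gmnn, Bub1, Ttk, Cenpe, Kif11, Tpx2, Nusap1, Prc1, Anln and Top2a. Among them, Ttk was also below it on ALA, and none was below it on SFA. The fold changes of these 11 are given as "at least", from means in which every value below 4.37 was raised to that level. All of the 11 but Ccne2 and Gmnn are mitotic genes. With all 50 genes treated so, the median difference was 0.85 for ALA and 1.45 for SFA. The mitotic median was then 1.08 against 0.35 for the S phase genes on ALA, and 1.66 against 0.90 on SFA. The gap between the classes is thus smaller on SFA than on the measured means.

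Several markers of the labelled tissue and age need stating before the single genes. Albumin (Alb) lay between 12.58 and 12.75 on all arrays, and the mean of 14 hepatocyte markers lay between -0.10 and 0.07 of the control mean on the ALA and SFA arrays. Alpha-fetoprotein (Afp), abundant in newborn liver, was low on every array, between 4.52 and 6.44. Hepcidin (Hamp), which hepatocytes make after birth in response to iron, was 11.78 and 11.61 on control, 5.73 and 4.52 on ALA and 3.83 and 4.85 on SFA. The mean of 7 fetal liver markers lay above control by 1.23 on ALA 1, 1.66 on ALA 2, 1.70 on SFA 1 and 1.75 on SFA 2. The mean of 10 markers of the postnatal hepatocyte lay below it, at -1.59 on ALA 1, -2.15 on ALA 2 and -2.21 on each SFA array. The control arrays themselves lay at -0.56 and 0.56. These 10 did not move as one. On ALA 6 were lower and 4 higher, from -6.57 to 0.66, and on SFA 8 were lower and 2 higher, from -7.35 to 0.42. Hsd3b5, a steroid enzyme of adult male liver, was 10.84 on control replicate 2 and between 4.13 and 4.87 on the other 5 arrays. Xist, which is transcribed in female cells, was 10.67 and 8.34 on control, 3.76 and 4.24 on ALA and 9.46 and 9.51 on SFA. Eif2s3y, a gene of the Y chromosome, was 3.63 and 7.95 on control, 7.74 and 7.80 on ALA and 4.11 and 3.79 on SFA. Both ALA arrays were thus low in Xist and high in Eif2s3y, both SFA arrays and control replicate 1 were the reverse, and control replicate 2 was high in both. In the comparisons that use the ALA arrays, diet and the sex of the pooled pups cannot be told apart. Both SFA arrays lay within the control pair for each gene. Without control replicate 2, which was high in both, 1 control array was left. The median SFA difference over the 50 genes was then 1.60. The part of pup sex in the SFA differences was not tested, nor was that of the maturity markers in the cell cycle differences.

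The promoters of S phase and mitotic genes differ in known elements, and 5 of them, picked by hand, are shown as examples. Each runs 5′ to 3′ from 160 bases before to 30 after the RefSeq start on the mouse build GRCm38.p6, with matches to the elements named below in capitals. Ccnb2 (chr9:70421525-70421714, minus strand), Cdk1 (chr10:69352883-69353072, minus strand) and Cdc20 (chr4:118437314-118437503, minus strand) are mitotic genes, and Mcm5 (chr8:75109349-75109538, plus strand) and Mcm6 (chr1:128359676-128359865, minus strand) are S phase genes.
Ccnb2: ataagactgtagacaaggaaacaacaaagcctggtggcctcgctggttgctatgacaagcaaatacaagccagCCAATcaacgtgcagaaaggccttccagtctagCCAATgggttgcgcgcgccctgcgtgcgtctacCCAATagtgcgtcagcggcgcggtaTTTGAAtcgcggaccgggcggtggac
Cdk1: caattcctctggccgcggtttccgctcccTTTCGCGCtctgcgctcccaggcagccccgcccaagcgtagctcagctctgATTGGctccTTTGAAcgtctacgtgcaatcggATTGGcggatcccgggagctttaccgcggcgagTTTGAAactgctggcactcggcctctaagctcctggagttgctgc
Cdc20: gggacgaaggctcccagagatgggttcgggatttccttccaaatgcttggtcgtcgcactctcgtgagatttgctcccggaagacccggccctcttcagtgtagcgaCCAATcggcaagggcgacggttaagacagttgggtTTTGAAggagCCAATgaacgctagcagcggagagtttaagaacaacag
Mcm5: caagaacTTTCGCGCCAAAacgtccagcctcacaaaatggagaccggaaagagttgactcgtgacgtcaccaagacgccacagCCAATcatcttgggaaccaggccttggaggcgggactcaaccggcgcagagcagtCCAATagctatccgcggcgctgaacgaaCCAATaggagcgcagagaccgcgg
Mcm6: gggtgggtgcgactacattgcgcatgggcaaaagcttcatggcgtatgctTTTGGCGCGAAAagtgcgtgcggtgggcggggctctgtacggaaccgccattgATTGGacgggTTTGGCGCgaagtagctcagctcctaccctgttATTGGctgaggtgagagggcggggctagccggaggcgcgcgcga
The capitals mark the CHR element (TTTGAA or TTCGAA), to which the MuvB complex binds, the CCAAT box (CCAAT, or ATTGG where it lies on the other strand), bound by NF-Y, and the E2F site (TTTCCCGC, TTTGGCGC, TTTCGCGC or TTTGCCGC). Both strands were searched, and matches may overlap, as the E2F pairs of Mcm5 and of Mcm6 do. The Ccnb2 stretch holds 3 CCAAT boxes upstream of a CHR, and that of Cdc20 a CHR between 2 CCAAT boxes. The Cdk1 stretch holds 2 CHR elements, 2 CCAAT boxes and an E2F site. The stretches of Mcm5 and Mcm6 hold E2F sites and CCAAT boxes and no CHR.

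Promoter windows of 300 bases, from 250 before to 50 after the start, were on hand for 42 of the 51 genes, 15 S phase and 27 mitotic, with 45 windows in all. A CHR was found in 22 of the 29 mitotic windows (75.9%), in 3 of the 16 S phase windows (18.8%) and in 19.2% of all 32851 windows. An E2F site was found in 1 of 29 mitotic windows, that of Cdk1, in 6 of 16 S phase windows (37.5%) and in 2.27% of all. The 6 belong to Mcm3, Mcm5, Mcm6, Mcm7, Cdt1 and Cdc6. The CCAAT box was common in both classes, in 23 mitotic windows (79.3%) and 10 S phase windows (62.5%), against 37.4% of all. A CHR and a CCAAT box together were in 20 mitotic windows (69.0%), in 3 S phase windows and in 7.53% of all. These are matches of letters and not binding sites. Windows for Mcm4, Aurkb, Kif20a, Tpx2, Foxm1, Ccnd1, Ccne2, Gmnn and Ccna2 were not used here.

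**Figure D2:**
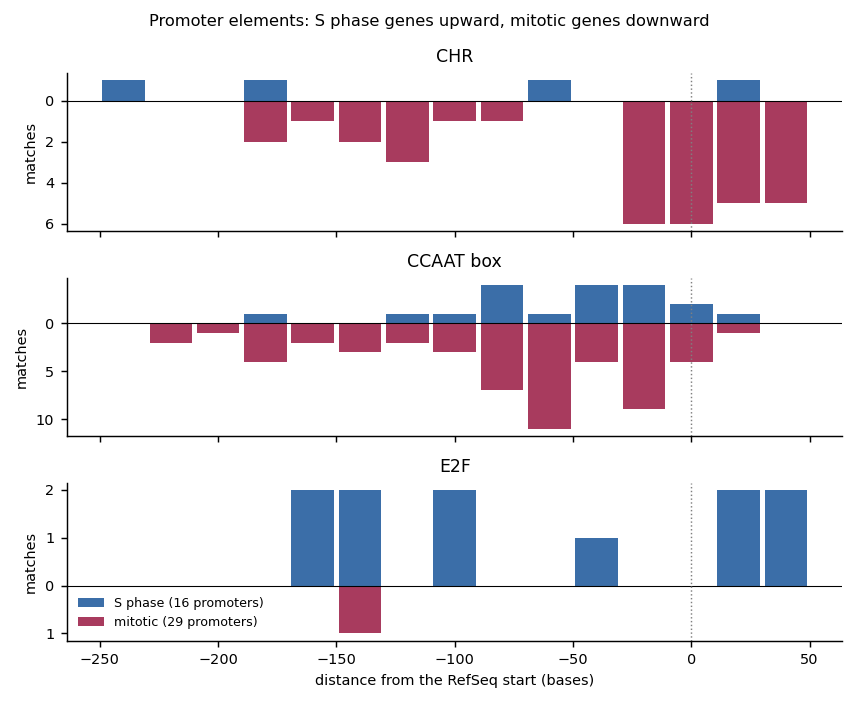
Number of matches to the CHR, CCAAT box and E2F elements by distance from the RefSeq start, in bins of bases along 16 S phase (up) and 29 mitotic (down) promoter windows. CHR matches of mitotic genes gather around the start, and E2F matches are nearly all from S phase genes.

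Among the regulators of the entry into S phase, 1 of 4 passed the test on each diet. Ccne2, the gene of cyclin E2, which activates CDK2 at the start of S phase, gave 4.55 and 3.91 on the control arrays, 5.11 and 5.40 on the ALA arrays and 5.90 and 5.90 on the SFA arrays. Its duplicates did not overlap between any pair of diets, and it was higher on ALA by at least 1.74-fold (log2 difference 1.03 ± 0.22, SE, n = 2 a diet; adjusted p = 0.0492) and on SFA by at least 2.71-fold (1.67 ± 0.22; adjusted p = 0.00653). The ALA call of Ccne2 was lost under 75th percentile centring, under quantile normalization and in a fit of only the 4 arrays compared. Ccne2 also lost it in 5 of the 6 fits that left out 1 array. Its relative Ccne1 was at 5.56 and 5.66 on control, 5.44 and 6.31 on ALA and 6.21 and 6.52 on SFA, with ALA 1 below the control pair, and the SFA difference of 0.75 ± 0.27 did not pass (adjusted p = 0.136). E2f1, the best known of the activating E2F factors, was at 5.31 and 5.54 on control, 5.61 and 5.88 on ALA and 5.51 and 5.79 on SFA, and neither difference passed. Ccnd1, whose cyclin D1 links growth signals to the cycle, was the one gene with a negative difference on both diets. It read 9.13 and 7.74 on the control arrays, 7.34 and 8.21 on the ALA arrays and 8.17 and 8.13 on the SFA arrays. The ALA and SFA values of Ccnd1 all lay within or below the range of the control pair, the differences of -0.66 ± 0.43 and -0.28 ± 0.43 did not pass, and both turned positive without control replicate 1 (0.04 and 0.41).

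Of the 10 genes that license origins or form the replicative helicase, 5 rose on SFA and 1 on ALA, with medians of 0.95 and 0.38. Mcm6, a subunit of the MCM2-7 helicase, had the largest difference, with 4.93 and 4.65 on the control arrays, 5.73 and 6.55 on the ALA arrays and 7.08 and 7.26 on the SFA arrays. The 3 diets did not overlap in Mcm6, which was 2.55-fold higher on ALA (1.35 ± 0.25; adjusted p = 0.0332) and 5.21-fold higher on SFA (2.38 ± 0.25; adjusted p = 0.00345). Mcm5 was at 5.36 and 5.21 on control, 5.82 and 6.48 on ALA and 6.90 and 6.87 on SFA, in the same order of diets. Its SFA difference passed (1.60 ± 0.21; adjusted p = 0.00738) and its ALA difference did not (0.86 ± 0.21; adjusted p = 0.0818). Mcm7 and Mcm4, 2 further subunits, also passed on SFA, at 1.36 ± 0.20 and 0.90 ± 0.18. The Mcm4 call was lost when only the 4 arrays compared were fitted and in 5 of 6 fits without 1 array. Mcm2, the subunit that also carries histones at the fork, was at 5.77 and 5.34 on control, 5.55 and 6.15 on ALA and 6.46 and 6.16 on SFA. ALA 1 lay between the controls there, and the SFA difference of 0.76 ± 0.24 missed the threshold (adjusted p = 0.103). Mcm3 missed it too, at 0.99 ± 0.26 (adjusted p = 0.0671), and passed under quantile normalization and cyclic loess.

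The helicase loaders were less uniform than the helicase itself. Cdt1, which brings the MCM ring to the origin, was at 5.32 and 5.20 on control, 5.45 and 6.19 on ALA and 6.35 and 6.48 on SFA, and rose on SFA (1.15 ± 0.23; adjusted p = 0.0283) but not on ALA (0.56 ± 0.23; adjusted p = 0.285). Gmnn encodes geminin, the inhibitor of CDT1, and its signals of 3.86 and 4.21 on control, 4.49 and 4.56 on ALA and 4.58 and 4.48 on SFA were close to background. Its control pair was the lowest, and the differences, at least 1.11-fold on ALA and 1.12-fold on SFA, did not pass. Cdc6, the partner of CDT1 in loading, was raised on 1 array, with 4.60 and 4.33 on the control arrays, 4.59 and 4.26 on the ALA arrays and 4.41 and 5.86 on the SFA arrays. Its SFA difference of 0.67 was 1.39 without SFA replicate 1, where limma called it (adjusted p = 0.0288), and -0.06 without SFA replicate 2. Its ALA difference of -0.04 was 0.0020 under quantile normalization and 0.0039 under cyclic loess. Cdc45, which joins the ring to form the active helicase, was at 5.13 and 5.25 on control, 5.23 and 5.64 on ALA and 5.42 and 5.38 on SFA, the smallest SFA difference of this group (0.21 ± 0.17).

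The clamp and the enzymes of nucleotide supply had medians of 0.75 on ALA and 0.93 on SFA, with 1 and 3 of 5 passing. Rrm2, the small subunit of ribonucleotide reductase, which makes deoxyribonucleotides and is made mainly in cells that copy DNA, gave 4.70 and 5.21 on the control arrays, 6.39 and 7.28 on the ALA arrays and 8.02 and 7.90 on the SFA arrays. The diets were fully ordered, with a difference of 1.88 ± 0.29 on ALA (3.69-fold; adjusted p = 0.0143) and 3.01 ± 0.29 on SFA (8.05-fold; adjusted p = 0.00237). Rrm1, the large subunit of the same enzyme, was at 6.10 and 5.94 on control, 6.65 and 7.59 on ALA and 7.67 and 8.05 on SFA. It passed on SFA (1.84 ± 0.29; adjusted p = 0.0119) and missed on ALA (1.10 ± 0.29; adjusted p = 0.0944). Pcna, the sliding clamp of the DNA polymerases, was at 8.36 and 8.25 on control, 8.52 and 8.95 on ALA and 9.31 and 9.15 on SFA, a narrower span than Rrm2 that still passed on SFA (0.93 ± 0.18; adjusted p = 0.0242). A dimmer Pcna probe gave the same order, with 8.25 and 8.14 on control, 8.46 and 8.89 on ALA and 9.19 and 9.09 on SFA. Tyms and Tk1 both supply thymidylate, and neither passed on either diet. Tyms was at 5.84 and 5.88 on control, 5.74 and 6.57 on ALA and 6.69 and 6.34 on SFA, and ALA 1 was below the control pair. Tk1 was at 7.14 and 7.14 on control, 7.60 and 8.18 on ALA and 7.65 and 7.66 on SFA, highest on ALA 2. Its other probe read 7.10 on ALA 1 against 7.14 and 7.15 on control. On ALA 2 that probe read 7.49, below its SFA values of 7.58 and 7.51, so the probes disagree on both ALA arrays.

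**Figure D3:**
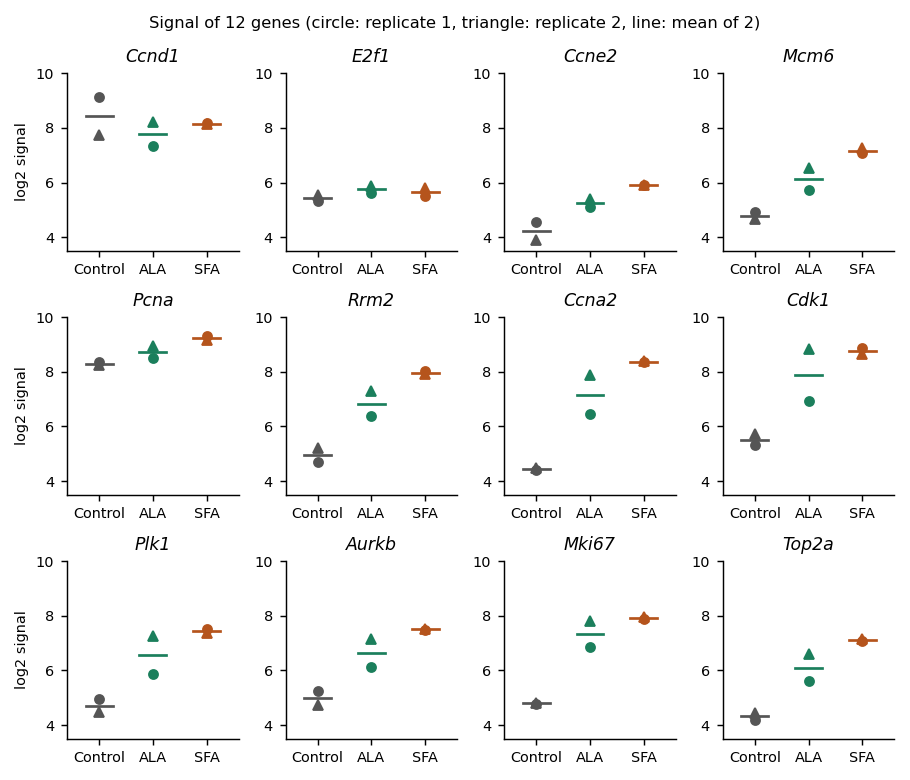
Log2 signal of 12 genes on each array by diet, with a circle for replicate 1, a triangle for replicate 2 and a line for the mean of the 2. Ccna2 and Mki67 show tight control and SFA pairs with the ALA pair between them, while the pairs of E2f1 overlap between SFA and control, and those of Ccnd1 overlap between all 3 diets.

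The mitotic cyclins, kinases and FOXM1 had the largest medians among the groups of more than 2 genes, 1.48 on ALA and 2.36 on SFA, with 3 and 7 of the 8 measured members passing. Ccna2, the gene of cyclin A2, which acts from S phase into mitosis, had the largest difference of all 50, with 4.41 and 4.48 on the control arrays, 6.45 and 7.89 on the ALA arrays and 8.35 and 8.39 on the SFA arrays. The control and SFA pairs were each close together, with the ALA pair between them and apart. Ccna2 was 6.63-fold higher on ALA (2.73 ± 0.38; adjusted p = 0.0105) and 15.3-fold higher on SFA (3.93 ± 0.38; adjusted p = 0.00237). The control mean of Ccna2, 4.44, lay just above the background level of 4.37, so background may limit these sizes too. Cdk1, the kinase that drives entry into mitosis, and its partner Ccnb2, cyclin B2, followed one pattern. Cdk1 was at 5.32 and 5.72 on control, 6.94 and 8.82 on ALA and 8.87 and 8.65 on SFA, so that ALA 2 lay within the SFA pair and ALA 1 between them and control. Its SFA difference was 3.24 ± 0.50 (9.46-fold; adjusted p = 0.0112) and its ALA difference 2.36 ± 0.50 (adjusted p = 0.0483), a call lost under every other scaling tried, with only the 4 arrays compared and in 5 of 6 fits without 1 array. Ccnb2 was at 5.57 and 5.17 on control, 6.62 and 8.57 on ALA and 8.47 and 8.29 on SFA, with ALA 2 above both SFA arrays. It passed on SFA (3.01 ± 0.51; adjusted p = 0.0168) and not on ALA (2.23 ± 0.51; adjusted p = 0.0639).

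Foxm1, the transcription factor of the mitotic wave, was at 4.40 and 4.88 on control, 5.38 and 6.12 on ALA and 6.14 and 5.93 on SFA. All ALA and SFA values were above the control pair, and the SFA difference passed (1.39 ± 0.26; adjusted p = 0.023). Plk1, a kinase of spindle assembly and mitotic exit, gave 4.95 and 4.47 on the control arrays, 5.87 and 7.25 on the ALA arrays and 7.52 and 7.37 on the SFA arrays, and passed on SFA (2.74 ± 0.39; adjusted p = 0.00882) and narrowly on ALA (1.84 ± 0.39; adjusted p = 0.0473), where 75th percentile centring, quantile normalization, the fit of 4 arrays and 5 of 6 fits without 1 array lost it. Aurka, the spindle pole kinase, was at 5.19 and 5.21 on control, 5.23 and 6.39 on ALA and 6.75 and 6.65 on SFA, with ALA 1 level with control and ALA 2 near SFA. It passed on SFA alone of the comparisons with control (1.50 ± 0.32; adjusted p = 0.0345). Nek2, a kinase of centrosome separation, passed on SFA as well (1.99 ± 0.47; adjusted p = 0.0464). Melk, a kinase known as a proliferation marker, was the member of this group that did not pass on SFA, at 5.04 and 4.49 on control, 5.06 and 5.17 on ALA and 5.62 and 4.92 on SFA, with SFA 2 below the higher control.

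The kinetochore, checkpoint, passenger complex and APC/C genes had medians of 0.94 on ALA and 1.47 on SFA, with 4 and 9 of 12 passing. Aurkb, the kinase of the chromosomal passenger complex, was at 5.25 and 4.72 on control, 6.12 and 7.17 on ALA and 7.47 and 7.54 on SFA. It rose 3.15-fold on ALA (1.65 ± 0.32; adjusted p = 0.0362) and 5.72-fold on SFA (2.52 ± 0.32; adjusted p = 0.00628), the largest SFA difference of this group. Its partner Birc5, survivin, was at 5.06 and 5.50 on control, 5.16 and 6.77 on ALA and 6.42 and 6.20 on SFA, and was not called on either diet. ALA 1 lay within the control pair there. Cdca8, borealin of the same complex, was not called either, at 0.69 ± 0.28 and 0.70 ± 0.28. Cdc20 and Ube2c, an activator and the ubiquitin-conjugating enzyme of the anaphase-promoting complex, rose on both diets. Cdc20 was at 4.84 and 5.04 on control, 5.78 and 6.36 on ALA and 6.80 and 6.41 on SFA, with differences of 1.13 ± 0.22 (adjusted p = 0.0386) and 1.67 ± 0.22 (adjusted p = 0.00746). Ube2c was at 5.17 and 5.22 on control, 6.32 and 7.49 on ALA and 7.30 and 7.53 on SFA, with differences of 1.71 ± 0.32 (adjusted p = 0.0339) and 2.21 ± 0.32 (adjusted p = 0.00967).

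Of the spindle checkpoint kinases, Bub1 was at 3.70 and 4.26 on control, 4.51 and 5.15 on ALA and 5.44 and 5.08 on SFA, all values of ALA and SFA being above the control pair. It passed on SFA with a rise of at least 1.85-fold (1.28 ± 0.27; adjusted p = 0.0325). Bub1b, Ttk and Mad2l1, which act in the same checkpoint, passed on SFA, at 2.93-fold, at least 1.63-fold and 5.32-fold. On ALA none of these passed, at 1.93-fold for Bub1b and 2.81-fold for Mad2l1, with Ttk at background. Cenpf, a kinetochore protein, passed on both diets at nearly the same size, 0.94 ± 0.14 on ALA and 0.97 ± 0.14 on SFA. Cenpe, also of the kinetochore, passed on SFA with at least 2.06-fold. Ndc80, which holds the microtubule at the kinetochore, had the smallest SFA difference of the mitotic genes. It was at 4.98 and 4.41 on control, 4.81 and 4.99 on ALA and 4.91 and 5.40 on SFA, overlapping between control and both diets.

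All 9 spindle and cytokinesis genes rose on SFA and 3 rose on ALA, with medians of 2.11 and 1.35. Ect2, the exchange factor that starts the contractile ring, was at 4.58 and 4.26 on control, 4.85 and 6.27 on ALA and 7.08 and 7.15 on SFA. It had the largest SFA difference of the group (2.69 ± 0.38, 6.47-fold; adjusted p = 0.00895), and its ALA difference did not pass (1.14 ± 0.38; adjusted p = 0.182). Kif23, a motor of the central spindle, was at 4.55 and 4.40 on control, 5.50 and 6.03 on ALA and 6.03 and 5.52 on SFA, and had the smallest, at 1.30 ± 0.23 on SFA (adjusted p = 0.018) beside 1.29 ± 0.23 on ALA (adjusted p = 0.0261). Prc1, which bundles microtubules of the central spindle, was at 3.46 and 4.17 on control, 4.99 and 5.45 on ALA and 5.86 and 6.00 on SFA, and was higher by at least 1.8-fold on ALA (adjusted p = 0.0273) and at least 2.94-fold on SFA (adjusted p = 0.00501). The third gene called on ALA was Nusap1, a microtubule binding protein, at least 3.13-fold higher there and at least 5.48-fold on SFA.

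Kif11, the motor that pushes the spindle poles apart, was at 4.15 and 3.91 on control, 4.97 and 6.14 on ALA and 6.48 and 6.04 on SFA. It passed on SFA with at least 3.7-fold (2.22 ± 0.34; adjusted p = 0.0112) and missed on ALA (adjusted p = 0.0593). Anln, anillin of the contractile ring, was at 3.94 and 3.71 on control, 4.56 and 5.97 on ALA and 5.99 and 6.05 on SFA, with ALA 1 above the control pair and ALA 2 next to the SFA pair. Its SFA rise was at least 3.14-fold (2.20 ± 0.38; adjusted p = 0.0173). Tpx2, the activator of Aurora A on the spindle, was at 4.40 and 4.17 on control, 4.69 and 5.40 on ALA and 5.80 and 5.88 on SFA, and rose on SFA by at least 2.75-fold (1.56 ± 0.23; adjusted p = 0.00976). Kif20a and Racgap1, both of the central spindle, rose on SFA by 2.09 ± 0.39 and 1.66 ± 0.24.

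Mki67 and Top2a encode proteins commonly stained to find dividing cells, Ki-67 as the coat of mitotic chromosomes and topoisomerase II alpha as the enzyme that untangles them. Mki67 was at 4.77 and 4.82 on control, 6.87 and 7.81 on ALA and 7.89 and 7.97 on SFA. The control pair was tight, and the ALA and SFA pairs were 5.83-fold (2.54 ± 0.27; adjusted p = 0.0043) and 8.79-fold higher (3.14 ± 0.27; adjusted p = 0.00168). It was the one gene called on ALA in all 14 alternatives in which it was tested. Top2a was at 4.204 and 4.448 on control, 5.60 and 6.59 on ALA and 7.08 and 7.15 on SFA, at least 3.22-fold higher on ALA (1.77 ± 0.29; adjusted p = 0.0176) and at least 6.51-fold on SFA (2.79 ± 0.29; adjusted p = 0.00283). A further Top2a probe, between 2.50 and 3.40, was below the background level on all arrays.

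**Figure D4:**
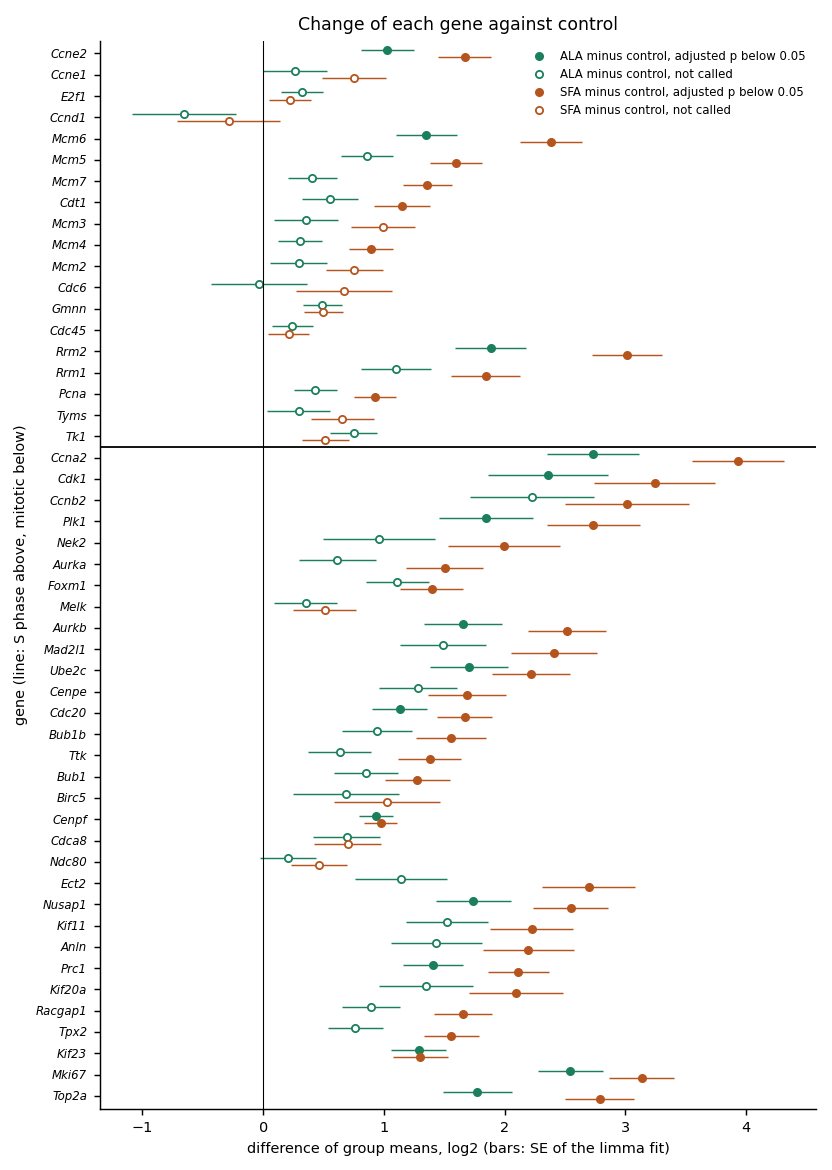
Difference of each gene from control on the log2 scale for ALA (green) and SFA (orange), with bars for the SE of the limma fit on 2 arrays a diet and filled points for an adjusted p below 0.05. All filled points lie right of 0, and 36 SFA points and 15 ALA points are filled.

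Over the 3 diets together, limma's F test called 31 of the 50 genes, against 5.25% of all genes. It called 9 without control replicate 1, 4 without control replicate 2, 18 without SFA replicate 1 and 16 without SFA replicate 2. The 14 genes called against control on neither diet were Ccnd1, Ccne1, E2f1, Mcm2, Mcm3, Cdc6, Gmnn, Cdc45, Tyms, Tk1, Melk, Ndc80, Birc5 and Cdca8, 10 S phase and 4 mitotic genes.

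Set directly against each other, SFA and ALA gave no call among the 50 genes at an adjusted p below 0.05 in limma, where 0.160% of all genes were called. Before adjustment, 22 of them had a p below 0.05, against 17.1% of all genes, and 47 of the 50 differences were positive, against 50.7% of all genes, with a median of 0.64 against 0.01 for all genes. The median was 0.59 over the S phase genes and 0.74 over the mitotic genes. Both SFA arrays were above both ALA arrays for 28 of the 50, against 24.1% of all genes. The largest differences were in Ect2 (1.55 ± 0.38; adjusted p = 0.121) and Ccna2 (1.20 ± 0.38; adjusted p = 0.183), and the negative ones in Tk1 (-0.23 ± 0.20), E2f1 (-0.10 ± 0.17) and Cdc45 (-0.03 ± 0.17). The last 2 turned positive under each of the 3 other scalings and that of Tk1 with the mean of its probes.

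The 2 ALA pools differed from each other across the set. ALA 2 read higher than ALA 1 in 49 of the 50 genes, with a median of 0.82, where it did so in 47.4% of all genes with a median of -0.02. The exception was Cdc6. ALA 1 lay between the highest control and the lowest SFA value for 37 genes. ALA 2 lay below both SFA arrays for 29, within the SFA pair for 14 and above it for 7. The shares of all genes in these positions are not given here, so these counts are description only. The mean shift of the mitotic genes from control was 0.79 on ALA 1, 1.81 on ALA 2, 1.99 on SFA 1 and 1.92 on SFA 2. For the S phase genes it was 0.27, 0.80, 1.00 and 1.09 in the same order. The median of SFA minus ALA over the 50 genes was 0.17 without ALA replicate 1 and 1.05 without ALA replicate 2. In the latter fit 2 genes were called, Ccna2 (1.92; adjusted p = 0.0483) and Ect2 (2.26; adjusted p = 0.0485). With ALA replicate 1 left out, the difference changed sign for Cdk1 (-0.06) and Ccnb2 (-0.18).

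The rest of the pathway was read from 4 lists of genes outside the 51. Over all genes, 3.15% were called higher on SFA and 2.02% on ALA. Of 45 other replication genes, 8 were higher on SFA and 0 on ALA, with medians of 0.37 and 0.02. The 6 with the largest and smallest called differences are Prim1 and Prim2, the primase subunits, Rfc4 of the clamp loader, Pole, the leading strand polymerase, Chaf1b, a histone chaperone of the fork, and Gins1 of the active helicase. Prim1 was at 4.35 and 4.39 on control, 4.58 and 5.30 on ALA and 6.27 and 6.08 on SFA, and Rfc4 at 5.50 and 5.59 on control, 5.76 and 6.28 on ALA and 7.19 and 7.25 on SFA. Both SFA pairs stood well above the other 4 arrays. Over control they were higher by at least 1.79 for Prim1, whose control mean was at background (adjusted p = 0.00597), and by 1.68 ± 0.19 for Rfc4 (adjusted p = 0.00402). For Pole, Prim2, Chaf1b and Gins1 the SFA differences were 1.49, 1.05, 1.04 and 1.03.

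Of 60 other mitotic genes, 24 were higher on SFA and 3 on ALA, with medians of 0.88 and 0.54. Arhgap11a, a regulator of RhoA, had the largest SFA difference (at least 2.32, with control at background; adjusted p = 0.0361), and it was at 4.31 and 4.30 on control, 4.55 and 6.54 on ALA and 6.68 and 6.69 on SFA. ALA 1 sat near control there and ALA 2 near SFA, as in Aurka and Nek2. Cenpm and Knl1, of the centromere and kinetochore, were called on both diets. Cenpm was higher by 1.58 on ALA and 2.23 on SFA, and Knl1, at background on control, by at least 1.36 and 1.60. Fam83d, a spindle protein, and Espl1, separase, had the lowest called SFA differences, 0.88 and 0.72. Iqgap3, a scaffold linked to proliferation, was the one called on ALA only (0.99 ± 0.20; adjusted p = 0.0402), with 0.65 ± 0.20 on SFA. The difference between its SFA and ALA values did not pass (adjusted p = 0.415).

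Few regulators outside the machinery passed, where 3.15% of all genes were called higher on SFA and 2.02% on ALA. At those shares, lists of 19 genes would hold few calls in any case. Of 19 other G1/S and checkpoint regulators, 1 was higher on SFA and 0 on ALA, with medians of 0.21 and 0.19. That gene was Rbl1, the pocket protein p107, at 5.55 and 4.74 on control, 5.51 and 5.62 on ALA and 6.18 and 6.71 on SFA. Of 19 cell cycle brakes, 2 were higher on SFA and 0 on ALA, with medians of 0.01 and 0.05. These were Gadd45g, a stress-induced inhibitor of CDK1, with 1.48 ± 0.35, and Ccng2, a cyclin of resting cells, with 1.06 ± 0.15. Before adjustment, a limma p below 0.05 against control on ALA was found for 14 of the replication genes, 4 of the regulators and 5 of the brakes, against 16.0% of all genes. Of all 19938 genes, limma called only 210 lower on ALA and 566 on SFA. In all 4 lists no gene was called lower on either diet. None was called between SFA and ALA, where the unadjusted p was below 0.05 for 13 replication genes, 24 mitotic genes, 4 regulators and 2 brakes, against 17.1% of all genes. Without control replicate 2, the SFA calls over the 4 lists fell from 35 to 3, and without control replicate 1 to 14.

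**Figure D5:**
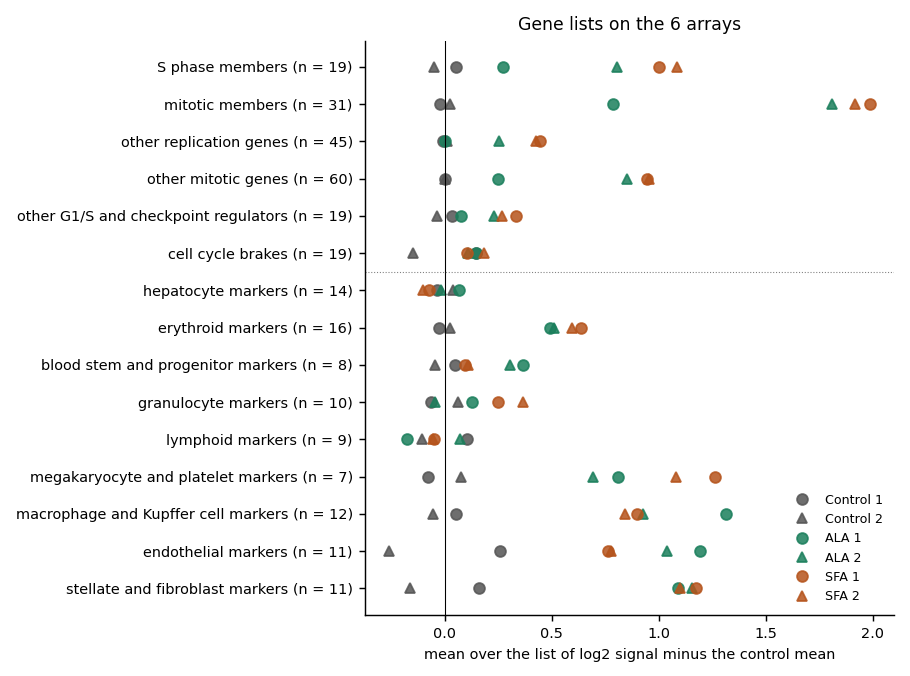
Mean over each list of the log2 signal minus the control mean, for the 6 arrays (circle for replicate 1, triangle for replicate 2, colour for diet); cell cycle lists stand above the dotted line and cell type lists below. The mitotic genes show a gap between ALA 1 at 0.79 and ALA 2 at 1.81, while the stellate list has 1.09 and 1.15 and the macrophage list 1.31 and 0.93.

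Markers of other cell types moved with the diets too, and their part in the cell cycle differences was not tested. For comparison, 2.02% of all genes were called higher on ALA and 3.15% on SFA. Of 12 macrophage and Kupffer cell markers, 8 were higher on ALA and 7 on SFA, with a mean shift of 1.31 and 0.93 on the ALA arrays and 0.90 and 0.84 on the SFA arrays. Of 11 stellate and fibroblast markers, 6 and 8 were higher, with 1.09 and 1.15 on ALA and 1.17 and 1.10 on SFA. Of 11 endothelial markers, 6 and 4 were higher, with 1.19 and 1.04 on ALA and 0.76 and 0.78 on SFA. The megakaryocyte list had 2 and 3 of 7 higher, with 0.81 and 0.69 on ALA and 1.26 and 1.08 on SFA. Between the 2 ALA arrays, ALA 2 was the higher in 47.4% of all genes. It was so in 0 of 12 macrophage, 4 of 11 endothelial, 6 of 11 stellate and 4 of 7 megakaryocyte markers. It was the higher in 6 of 7 fetal liver and 8 of 9 lymphoid markers and in 1 of 10 postnatal hepatocyte markers.

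Blood formation, which continues in newborn liver, was read from 16 erythroid and 8 stem and progenitor markers. Over all 19938 genes, 2.02% were called higher on ALA and 3.15% on SFA, and 566 genes were called lower on SFA. Of the erythroid markers, 3 were higher on ALA, and 4 were higher and 1 lower on SFA, with a mean shift of 0.49 and 0.51 on the ALA arrays and 0.64 and 0.59 on the SFA arrays. Of the erythroid transcription factors, Gata1 was between 4.49 and 5.01 and Klf1 between 5.06 and 5.88 on all arrays, and neither passed. Klf1 differed by 0.24 on ALA and 0.42 on SFA, where the median of the 16 markers was 0.36 and 0.24. Of the stem and progenitor markers 1 was higher on each diet, with shifts of 0.36 and 0.30 on ALA and 0.09 and 0.11 on SFA. The 10 granulocyte and 9 lymphoid markers had 3 and 0 called on SFA and none on ALA.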

How the data were processed

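Total RNA from pools of 3 livers was hybridised to 6 Affymetrix arrays, 2 for each diet. The deposited values are log2 signals, read as log2 from their range of 1.98 to 13.1; per the submitters' processing notes the authors used RMA (robust multi-array average) and Partek 6.6. The annotation version and probe settings are not given in the sources used here.

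Of 35556 probes, the 21789 with 1 gene symbol were kept, with the brightest probe standing for its gene, which left 19938 genes. The 1621 probes with several symbols and the 12146 with none listed were left out. A linear model with a mean per diet was fitted to all 6 arrays in limma 3.58.1 (R 4.3.3) with empirical Bayes moderation, without a filter on signal, and Benjamini-Hochberg adjustment was made across the 19938 genes. An adjusted p below 0.05 is called; errors are standard errors with n = 2. The two-sided p-values rest on the spread between duplicate pools alone. The labels do not say whether duplicate pools held different animals, though sex-linked genes differed between the control pools. The number of arrays limits the precision.

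Genes whose values are given on each array were named by a rule: 34 fixed genes, the largest and smallest SFA difference in each role group, and the 3 largest and 3 lowest called differences in each other pathway list. The members, gene lists, marker lists and tests were chosen with earlier results of these data known. Gene lists are described and not tested. Promoter sequences are from RefSeq (GRCm38.p6). The fit was tested on simulated data. Alternatives are a signal minimum of 5, the mean of probes, 3 other scalings, an intensity trend, a fit of 4 arrays, a replicate block and leaving out each array.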

Additional observations from a re-analysis of the deposited data

How the results depend on the processing

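Scaling, the choice of probes, the intensity trend and a signal minimum of 5 over all arrays left the member counts within 1.5 times, and every change below is one that went further or turned a sign. With only genes of a control mean of at least 5, 18 members were tested, and the called counts were 2 for ALA, 10 for SFA and 9 in the F test; the ALA and SFA medians were 0.58 and 1.09, and the mitotic minus S phase gaps 1.24 for ALA, 1.56 for SFA and 0.36 for SFA minus ALA, and the 4 other pathway lists had 15 SFA calls. With the mean of all probes the SFA gap was 0.80. In those lists the ALA calls went from 3 to 7 with the signal minimum over all arrays and 8 with the trend, and the calls of SFA minus ALA from 0 to 3 with either minimum and 5 with the trend. At the 90th percentile of olfactory receptors, 7 members in place of 11 were at background on control and 0 in place of 1 on ALA. With 100 bases before the start, 0% of mitotic windows in place of 3.45% held an E2F site.

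Leaving out 1 array at a time, with a lone array assumed to vary like the others, the ALA count ran from 2 to 22 with medians of 0.53 to 1.32 (S phase 0.19 to 0.70, mitotic 0.74 to 1.82, gap 0.54 to 1.13). The SFA count ran from 10 to 36 with medians of 1.47 to 1.60 (S phase 0.80 to 0.97, mitotic 1.76 to 2.04, gap 0.79 to 1.18). For SFA minus ALA the count ran from 0 to 2 with medians of 0.17 to 1.05 (S phase 0.27 to 0.79, mitotic 0.12 to 1.15, gap -0.15 to 0.36), and the F test from 4 to 33. Calls in the other lists ran from 0 to 9 for ALA, 3 to 38 for SFA and 0 to 1 for SFA minus ALA. Of the members called, 1 of 15 on ALA (Mki67) and 9 of 36 on SFA were called in every alternative in which they were tested.

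Signs turned under scaling for Cdc6 on ALA (0.0020 quantile, 0.0039 cyclic loess) and, for SFA minus ALA, for E2f1 (0.011 under 75th percentile centring, 0.075 quantile, 0.025 loess) and Cdc45 (0.080, 0.14 and 0.093); Tk1 was 0.0057 with the mean of its probes. With 1 array left out, signs turned on ALA for Ccnd1 (-1.35 to 0.038), Ccne1 (-0.17 to 0.70), Mcm2 (-0.0036 to 0.59), Mcm3 (-0.0089 to 0.71), Cdc6 (-0.20 to 0.13), Tyms (-0.12 to 0.71), Ndc80 (-0.081 to 0.49) and Birc5 (-0.12 to 1.49). On SFA they turned for Ccnd1 (-0.98 to 0.41) and Cdc6 (-0.057 to 1.39). For SFA minus ALA they turned for E2f1 (-0.24 to 0.041), Cdc45 (-0.23 to 0.17), Tk1 (-0.52 to 0.055), Cdk1 (-0.057 to 1.83) and Ccnb2 (-0.18 to 1.76). None of these was called with all 6 arrays, Cdc6 was called on SFA without SFA replicate 1, and the cause was not tested. Over all genes, 52.6% of the SFA calls were higher, against 71.8% with 75th percentile centring, 68.2% with quantile normalization and 65.1% with cyclic loess. The centring also moved the median of all genes to 0.11 for SFA minus ALA.

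The replicate numbers do not pair the samples: over genes, the replicate 2 minus 1 differences correlated at -0.02 between control and ALA, -0.01 between control and SFA and 0.01 between ALA and SFA. With a replicate block the called members were 12 for ALA, 36 for SFA, 0 for SFA minus ALA and 31 in the F test, and the ALA calls lost were Ccne2, Plk1 and Cdc20. Control means at or below background limit the sizes for 11 members.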
